A study of Mus musculus with 6 samples.

Results

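Expression of 10 genes of the exocrine pancreas was followed across 6 Illumina bead arrays hybridized with mouse colon RNA. They comprise the serine protease zymogens Try4, Ctrb1, Ctrl, Cela1 and Cela2a, the metallo-carboxypeptidase zymogen Cpa1, the lipase cofactor Clps, the lipase-related Pnliprp1, the amylase Amy2a5 and the zymogen granule protein Sycn. The platform annotation assigned 14 of the 45281 probes to these 10 genes, with 3 probes for Amy2a5, a pair each for Cela1 and Clps and a single probe for each of the other 7. The genes were chosen by their log2 intensities on these same 6 arrays, so those intensities, and the KO and control levels computed from them, are given as a description without a test. Of these arrays, 3 came from control mice and 3 from Setd2 KO mice, with the tissue labelled colon, the strain C57BL/6 and the age 6 weeks in both groups. The product of Setd2 places the trimethyl mark on lysine 36 of histone H3 in transcribed genes. The labels do not give the allele, the cells in which the gene was disrupted, or whether each replicate is a different animal, so the spread between arrays may in part be technical.

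Acinar cells of the pancreas make most of the enzymes that digest protein, fat and starch, store them in zymogen granules and release them through the pancreatic duct into the duodenum. The proteases leave the cell as inactive precursors and are activated in the gut lumen by trypsin, which is itself activated by the brush border enzyme enteropeptidase. Transcription of these genes in acinar cells depends on the PTF1 complex, which contains the proteins encoded by Ptf1a and Rbpjl and binds an E-box followed by a TC-box spaced by a turn or so of the helix. The colon takes up water and salts and is not a site where these enzymes are known to be made in quantity.

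The brightest probe of each gene is used unless stated otherwise, and values are the authors' normalized intensities or their log2. The lowest value in the data is 1, a floor at which values have no order, and an intensity under 16 is called near the floor. In bulk tissue, fewer cells of a type and less RNA per cell cannot be told apart. The brightest Setd2 probe measured 374, 600 and 329 on control 1 to 3 and 201, 119 and 146 on KO 1 to 3, so every KO array lay below every control array. Some colon markers varied widely over the 6 arrays, among them Car1 (8.11 to 13.73 on the log2 scale) and Slc37a2 (0 to 9.56). Muc2, the gel-forming mucin, lay between 13.54 and 13.86, and Zg16, a lectin of the goblet cell mucus, between 13.43 and 13.84. Both lie near the highest value on any array (16715), where differences may be compressed. Control 2 stood apart from the other arrays, with 41.6% of its probes at the floor against 33.5% to 36.9% elsewhere, and its correlation with the other arrays over 18918 features was 0.80 to 0.82, where the other 5 arrays reached 0.93 to 0.94 with their nearest neighbour.

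Of the 10 genes, 9 have a promoter in the RefSeq table for GRCm38.p6 (Clps has none there). The 250 bases before the annotated start were searched on both strands for TATAAA, the E-boxes CACCTG and CAGCTG and the TC-box TTTCCC, and, after these matches were seen, for the E-box CANNTG followed after 4 bases by TTTCCC, matches to which overlap those of the single motifs. The following 5 are shown because they contrast genes at or near the floor on some arrays (Ctrb1, Try4, Cela2a) with genes bright on all 6 (Cela1, Sycn). Capitals mark the matches on either strand, and every sequence runs 5′ to 3′ in the direction of the gene.
Ctrb1 (chr8:111691011-111691260, minus strand): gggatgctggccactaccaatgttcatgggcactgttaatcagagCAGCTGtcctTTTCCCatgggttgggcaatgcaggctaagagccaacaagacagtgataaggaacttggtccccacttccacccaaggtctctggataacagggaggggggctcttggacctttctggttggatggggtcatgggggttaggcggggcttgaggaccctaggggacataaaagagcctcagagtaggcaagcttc
Try4 (chr6:41302022-41302271, plus strand): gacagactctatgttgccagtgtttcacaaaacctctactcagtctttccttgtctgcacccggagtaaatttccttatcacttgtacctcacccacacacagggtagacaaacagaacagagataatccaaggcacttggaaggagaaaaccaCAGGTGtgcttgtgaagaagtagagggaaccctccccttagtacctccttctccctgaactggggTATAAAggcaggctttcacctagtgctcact
Cela2a (chr4:141826006-141826255, minus strand): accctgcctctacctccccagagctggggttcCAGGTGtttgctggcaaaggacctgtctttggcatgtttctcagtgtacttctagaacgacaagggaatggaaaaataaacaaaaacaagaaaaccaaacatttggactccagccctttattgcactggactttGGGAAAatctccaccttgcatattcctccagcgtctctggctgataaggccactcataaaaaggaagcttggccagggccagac
Cela1 (chr15:100687921-100688170, minus strand): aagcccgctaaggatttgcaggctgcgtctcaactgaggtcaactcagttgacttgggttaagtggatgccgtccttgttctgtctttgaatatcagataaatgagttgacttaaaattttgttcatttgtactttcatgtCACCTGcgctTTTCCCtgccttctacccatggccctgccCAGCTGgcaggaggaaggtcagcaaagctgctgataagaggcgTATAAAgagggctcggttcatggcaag
Sycn (chr7:28540635-28540884, plus strand): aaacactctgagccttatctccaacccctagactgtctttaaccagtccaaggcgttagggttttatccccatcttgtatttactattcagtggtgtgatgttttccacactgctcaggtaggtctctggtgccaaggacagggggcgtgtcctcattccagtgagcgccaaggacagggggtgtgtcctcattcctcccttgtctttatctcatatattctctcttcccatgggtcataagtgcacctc
The spaced E-box and TC-box was found in Ctrb1, starting 205 bases before the start, and in Cela1, starting 109 bases before it, and in 26 of 32851 promoters (0.0791%) of the same length. Of these genes Ctrb1 was near the floor on control 3 and KO 3, and Cela1 was not. TATAAA was found in 3 of the 9 promoters (Amy2a5, Try4 and Cela1, 27 to 31 bases before the start) against 12.4% of all promoters. CACCTG was found in 4 against 17.2%, CAGCTG in 4 against 13.0%, and TTTCCC in 4 against 21.9%. Sycn and Pnliprp1 held none of the searched motifs in this window. These matches describe letters, not binding.

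Across the arrays the enzyme genes varied together, with control 1 high, control 3 and KO 3 low and the other 3 arrays between. Control 1 was the highest array for 9 of the 10 genes, and control 2 for Amy2a5. Control 3 and KO 3 both lay below the other 4 arrays for 8 genes, where 5.99% of 18918 features showed that order, and 7 of these were also highest on control 1, against 1.37% of features. Clps and Sycn were the 2 that departed from it. On control 1, control 2, KO 1 and KO 2 all 10 genes had an intensity of at least 16. On control 3 Try4, Ctrb1, Ctrl, Cela2a, Cpa1 and Pnliprp1 were near the floor, and on KO 3 the same genes without Pnliprp1. Each genotype thus held 1 low array for these 8 genes, while the highest array was a control array for all 10.

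**Figure D1:**
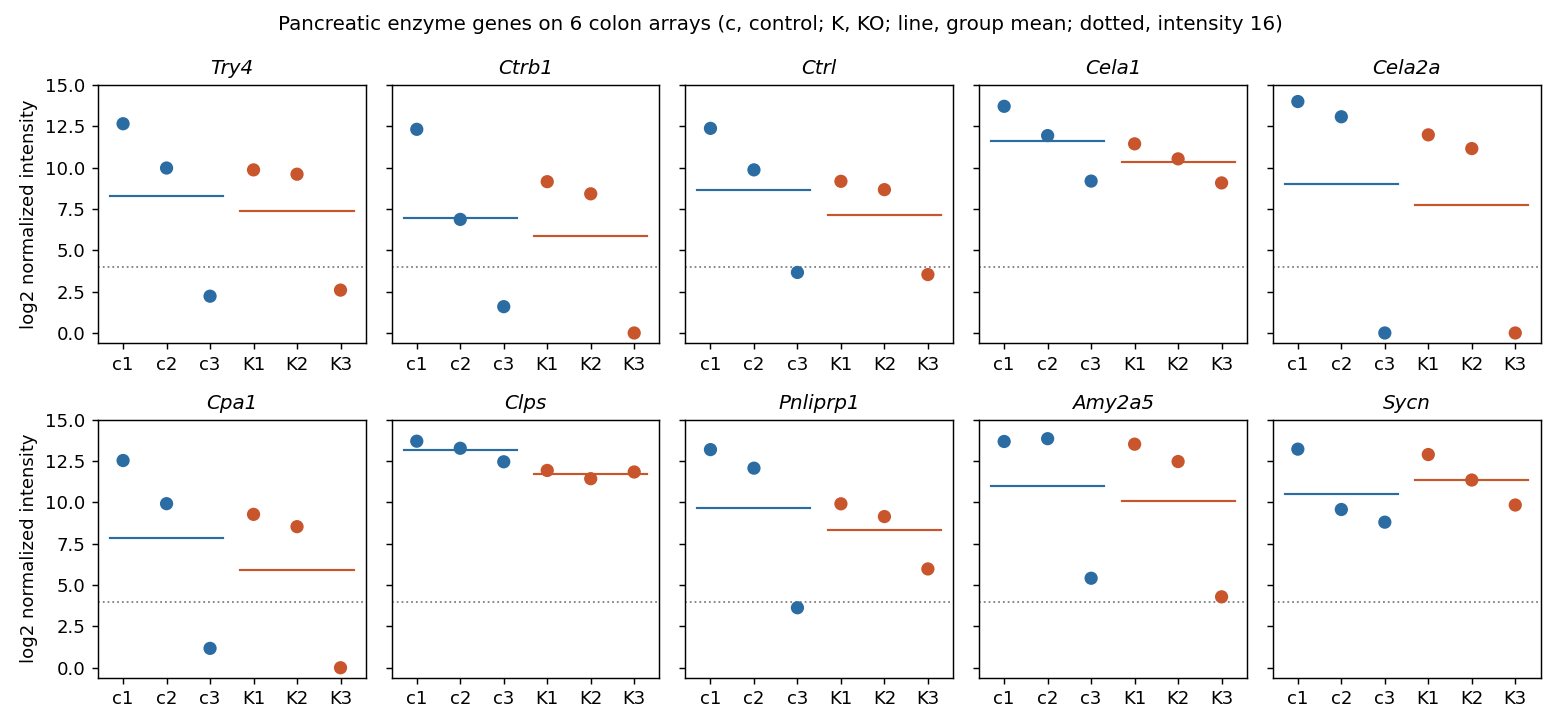
Log2 normalized intensity (vertical axis) of the brightest probe of each of the 10 genes on control 1 to 3 (c1 to c3, blue) and KO 1 to 3 (K1 to K3, orange), 1 point an array, with a line at each group mean and a dotted line at an intensity of 16. Points for c3 and K3 lie at or near 0 for Cela2a, Cpa1 and Ctrb1, while Clps stays between 11.43 and 13.70 on every array.

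Among the serine proteases, Try4, a trypsinogen, measured 6443, 1007 and 4.68 on control 1 to 3 and 931, 777 and 6.03 on KO 1 to 3. Ctrb1, chymotrypsinogen B, measured 5099, 117 and 3.02 in control and 568, 341 and 1 in KO. Ctrl, a chymotrypsin-like protease, measured 5307, 932 and 12.6 in control and 577, 407 and 11.6 in KO. In these 3 genes the third array of each group was near the floor, and the groups overlapped. Control 2 held more Try4 and Ctrl than either KO array with signal, but less Ctrb1 than both, so the order of control 2 depended on the gene.

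Cela2a, a pancreatic elastase, had the widest range of the 10 genes. Its intensity was 16339 on control 1, close to the highest value on any array (16715), 8630 on control 2 and 1 on control 3, and 4044, 2276 and 1 on the KO arrays. Control 3 and KO 3 thus sat at the floor for a gene that was among the brightest on control 1. Cela1, the other elastase, measured 13375, 3920 and 582 in control and 2775, 1478 and 539 in KO. It kept the order control 1, control 2, KO 1, KO 2 of Cela2a but remained well above the floor on control 3 and KO 3, so that its range over the 6 arrays was 4.63 on the log2 scale against 14.00 for Cela2a. A second, dimmer Cela1 probe was at the floor on 5 arrays and at 14.99 on control 1.

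Cpa1, which removes C-terminal residues from peptides, measured 5922, 970 and 2.25 in control and 619, 370 and 1 in KO. Its 6 arrays ranked as they did for Ctrl. Pnliprp1, which resembles pancreatic lipase but has little lipase activity, measured 9353, 4296 and 12.4 in control and 964, 565 and 62.9 in KO. It shared the high and low arrays but was the exception on KO 3, where it stayed above 16 and was 2.35 higher than on control 3 on the log2 scale. Amy2a5, a pancreatic amylase that breaks down starch, measured 13138, 14784 and 42.6 in control and 11737, 5668 and 19.5 in KO. On the log2 scale control 1, control 2 and KO 1 lay between 13.52 and 13.85 for this probe, while control 3 and KO 3 were at 5.41 and 4.29. The 3 bright values lie near the shared maximum, where differences may be compressed, and saturation could not be checked.

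Clps did not follow, and Sycn kept the order of the other genes within each group but not across the groups. Clps, colipase, which lets pancreatic lipase work in the presence of bile salts, measured 13305, 9881 and 5609 in control and 3902, 2763 and 3658 in KO. It was bright on all 6 arrays, its range was 1.25 within control and 0.50 within KO on the log2 scale, and KO 3 lay above KO 2. Its second probe had a range of 3.85 within control and 0.60 within KO. The control 1 value of the brightest probe lies near the shared maximum, where differences may be compressed. By the brightest probe Clps was also the sole member of the 10 whose groups did not overlap. Every KO array was lower, an order shown by 5.31% of 18918 features. Sycn, syncollin, a protein of the zymogen granule membrane, measured 9532, 760 and 446 in control and 7600, 2611 and 917 in KO. Within each group its arrays ranked 1, 2, 3, as for the proteases, with a range of 4.42 in control and 3.05 in KO on the log2 scale. It was above the floor on all 6 arrays, and KO 3 lay above both control 2 and control 3, so that all 3 KO arrays exceeded 2 of the 3 control arrays.

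Within control the range over the 3 arrays was at least 3 on the log2 scale, or 8-fold, for 9 of the 10 genes. Such a range was found there for 19.4% of all features. Clps was the exception by its brightest probe (1.25), while its second probe had a range of 3.85. Within KO the range was at least 3 for 8 of 10, with Clps and Cela1 (2.36) the exceptions, against 6.55% of features. A range that ends at the floor, as for Cela2a, is a lower bound. The median range was 9.14 in control and 6.45 in KO, where all features had medians of 1.67 and 0.91. The range was smaller in KO than in control for 9 genes (Amy2a5 was the other way, 8.44 in control and 9.23 in KO), as it was for 73% of all features. For the dimmer Amy2a5 probes it was smaller in KO, at 8.76 and 2.06 against 11.03 and 6.97 in control.

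The 2 arrays of each group that carried the signal differed in how evenly the genes moved. All 10 genes were lower on KO 2 than on KO 1, so they shifted in the same direction. The log2 differences (KO 1 minus KO 2) ran from 0.26 (Try4) to 1.54 (Sycn), with a median of 0.76. The median over all features was 0. The dimmest Amy2a5 probe went the other way, at 16.1 on KO 1 and 20.7 on KO 2. Other acinar genes, described below, did not share the shift. Of the 19 that were lowest on control 3 and KO 3, 9 were lower on KO 2, with a median difference of -0.02. Between the control arrays the difference (control 1 minus control 2) ran from -0.17 (the brightest Amy2a5 probe, near the top of the scale) through 0.43 (Clps), 0.92 (Cela2a) and 1.12 (Pnliprp1) to 3.65 (Sycn) and 5.45 (Ctrb1), with a median of 2.14. The spread of these differences between the highest and lowest gene was 5.62 in control and 1.28 in KO. Over all features the SD of the same differences was 2.03 between control 1 and control 2 and 1.15 between KO 1 and KO 2. All features were thus also less even between these control arrays. An SD and a spread from highest to lowest gene are unlike measures and cannot be compared directly. The median difference of the 10 genes between the low arrays (control 3 minus KO 3) was 0.12.

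**Figure D2:**
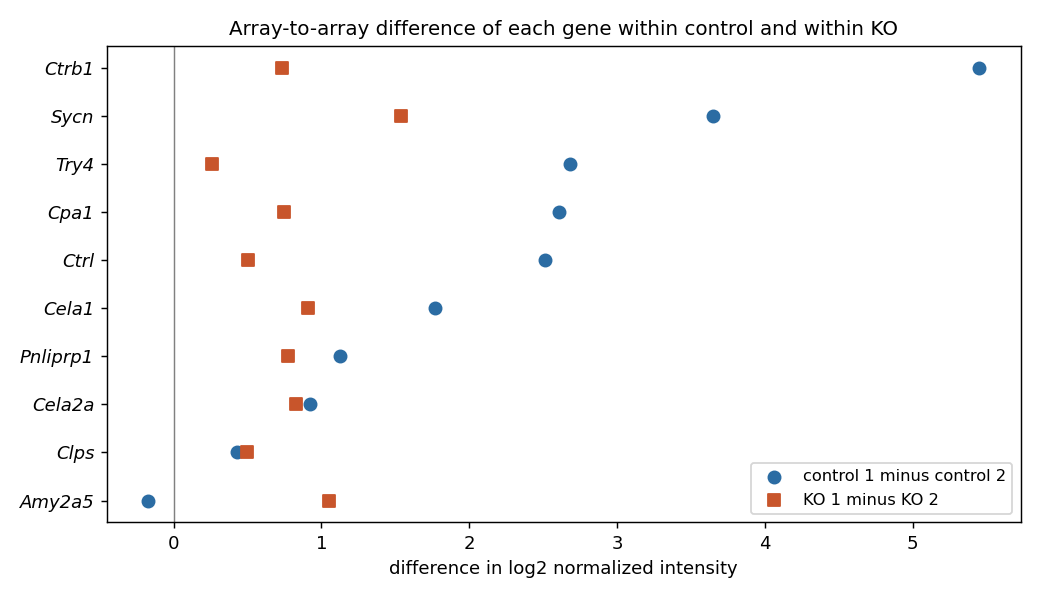
Difference in log2 normalized intensity (horizontal axis) between control 1 and control 2 (blue circles) and between KO 1 and KO 2 (orange squares) for each of the 10 genes, 1 row a gene. The squares lie between 0.26 and 1.54, and the circles between -0.17 and 5.45.

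The genes with several probes allowed control 2 to be read more than once. The second Clps probe measured 7498, 520 and 2321 in control and 1478, 972 and 1423 in KO. It had the order of the brighter probe on the other 5 arrays, but control 2 was its lowest array, whereas the brighter probe placed control 2 second highest. Of the other Amy2a5 probes, one measured 2088, 2.07 and 1 in control and 434, 146 and 1 in KO, and the dimmest 125, 2.61 and 1 in control and 16.1, 20.7 and 4.96 in KO. On control 2 the 3 Amy2a5 probes thus ran from near the floor to the highest value that gene reached on any array. This disagreement was not peculiar to these genes. Among 492 genes with at least a pair of probes of mean log2 intensity 8 or more, the gap between the brightest pair shifted by over 1 from its median over the 6 arrays for 35.4% of genes on control 2 and for at most 1.02% on any other array. The part of this in the departures of Ctrb1, Sycn and Amy2a5 on control 2 was not tested.

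**Figure D3:**
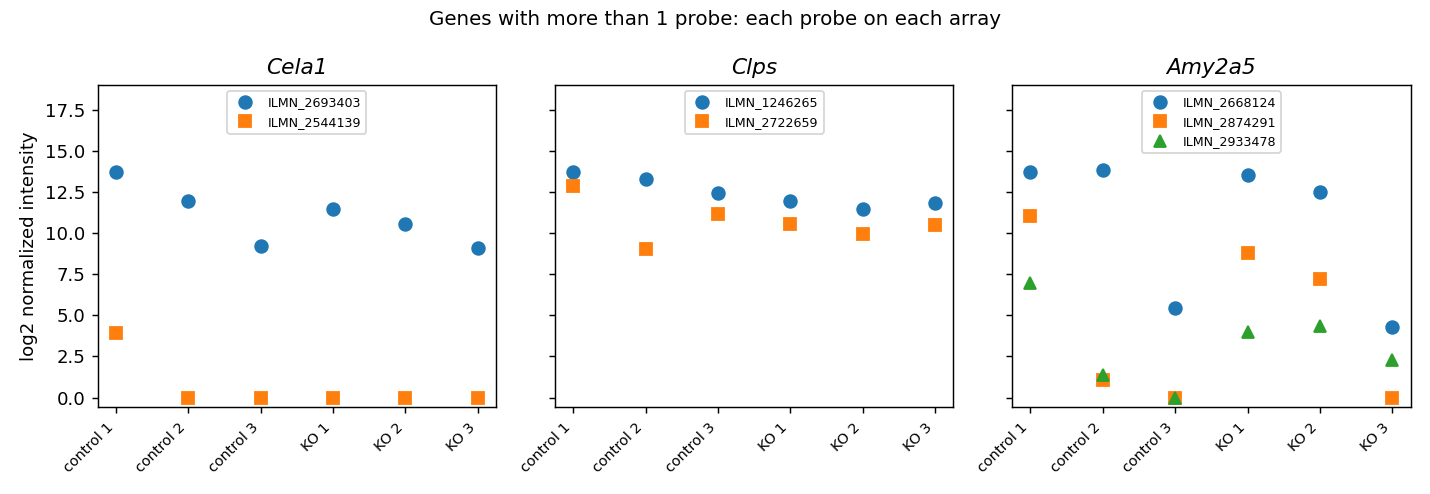
Log2 normalized intensity (vertical axis) of every probe of Cela1, Clps and Amy2a5 on the 6 arrays (horizontal axis), 1 symbol a probe. On control 2 the Amy2a5 probes spread from 1.05 to 13.85, and the dimmer Clps probe drops to 9.02 while the brighter one stays at 13.27.

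The comparison the study was designed for is KO against control. After Benjamini-Hochberg adjustment limma called 0 of 18918 features at a threshold of 0.05 (0%), the smallest adjusted p being 0.4, while 814 (4.3%) had an unadjusted p under 0.05. All 10 genes were among the 18918 features kept by the filter on low values. Of the 10 genes, 9 had a lower mean in KO, with a median log2 difference (KO minus control) of -1.27 against -0.09 over all features, and Sycn had a higher mean. Values at the floor enter these means as 0. The standard errors of the differences ran from 0.47 to 4.68, where the median over all features was 0.63. They are limma's moderated errors, which draw on the variances of all features, so they do not follow from the SDs given here alone. The genes were chosen on these values, so neither the fit nor these errors serve as a test of them. For Cela2a the control mean was 9.02 ± 7.83 (SD, n = 3) and the KO mean 7.71 ± 6.69 (SD, n = 3), a difference of -1.31 (SE 4.68). For Clps the control mean was 13.14 ± 0.63 (SD, n = 3) and the KO mean 11.73 ± 0.26 (SD, n = 3), a difference of -1.41 (SE 0.47). Its second probe differed by -0.72, with overlapping groups.

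The direction depended on which arrays were compared. Without control 1, which was the highest array for 9 genes, the median difference was 0.48 and 8 of 10 genes were higher in KO. Without KO 3 it was 1.24, with 7 of 10 higher in KO, and without control 2 it was -0.49, with 7 lower. Without control 3 it was -3.85, with all 10 lower, and without KO 1 and KO 2 it was -2.36 and -2.07. Clps (-1.75 to -1.13) and Cela1 (-2.47 to -0.21) kept a lower KO mean whichever single array was left out, while the other 8 changed sign at least once. With the mean of all its probes in place of the brightest, Amy2a5 differed by 0.39 rather than -0.89.

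Other genes of the acinar programme were read from a list of 46, of which 34 had a probe and 32 passed the filter. Limma called 0 of the 32 in either direction after adjustment, and 0 had an unadjusted p under 0.05. Of these, 26 were lower and 6 higher in KO. The median log2 difference was -0.80, against -0.09 over all features. That median was 0.13 without control 1, 0.01 without KO 3, -0.47 without control 2, -2.76 without control 3 and -1.80 and -1.81 without KO 1 and KO 2. Control 3 and KO 3 both lay below the other 4 arrays for 19 of the 32 (5.99% of all features), and 17 of these were highest on control 1. Summed over the genes with a probe, intensity was 78349, 37639 and 28906 in control and 38611, 36369 and 33640 in KO, a sum that includes Zg16 and other genes the colon itself expresses.

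The genes of the list with the widest range, between 9.98 and 12.09 on the log2 scale, were Cela3b, Gp2, Cpb1, Pla2g1b, Try10, Pdia2, Try5 and Rnase1. Gp2, the major glycoprotein of the zymogen granule membrane, had log2 intensities of 12.04, 8.74 and 1.93 in control and 8.29, 6.97 and 0 in KO. Pla2g1b, the secreted pancreatic phospholipase, had 11.87, 8.98 and 1.49 in control and 8.31, 7.88 and 0 in KO. Both ranked the arrays as Ctrl and Cpa1 did. Cpb1, a carboxypeptidase, had 11.87, 7.08 and 0 in control and 8.83, 7.78 and 0 in KO. Control 2 lay below KO 1 and KO 2 for Cpb1, and also for the elastase-like protease Cela3b and the trypsinogen Try10 (5.68 and 4.40 on control 2, 8.81 and 8.72 on KO 1), as it did for Ctrb1. Trypsinogen genes are near-identical copies of each other, and without the probe sequences it is not known how far the probes of Try4, Try5 and Try10 read each other's transcripts.

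The 4 genes of the list with the smallest p in limma were Gamt, Ctrc, Pnliprp2 and Rbpjl (unadjusted p from 0.0545 to 0.225, adjusted p = 0.940 for each). Rbpjl, the acinar partner in the PTF1 complex, had 7.74, 7.37 and 0 in control and 2.54, 3.76 and 0 in KO. Ctrc, chymotrypsin C, had 7.52, 6.21 and 0 in control and 0.04, 1.98 and 0 in KO. For both, control 1 and control 2 lay above all KO arrays and control 3 was at the floor. Pnliprp2, a lipase also made outside the pancreas, had 11.46, 10.10 and 11.41 in control and 11.78, 11.81 and 12.19 in KO, and was bright on all 6 arrays. Gamt, which makes creatine from guanidinoacetate, had 6.43, 7.08 and 5.25 in control and 4.32, 4.91 and 5.36 in KO, with no array near the floor.

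**Figure D4:**
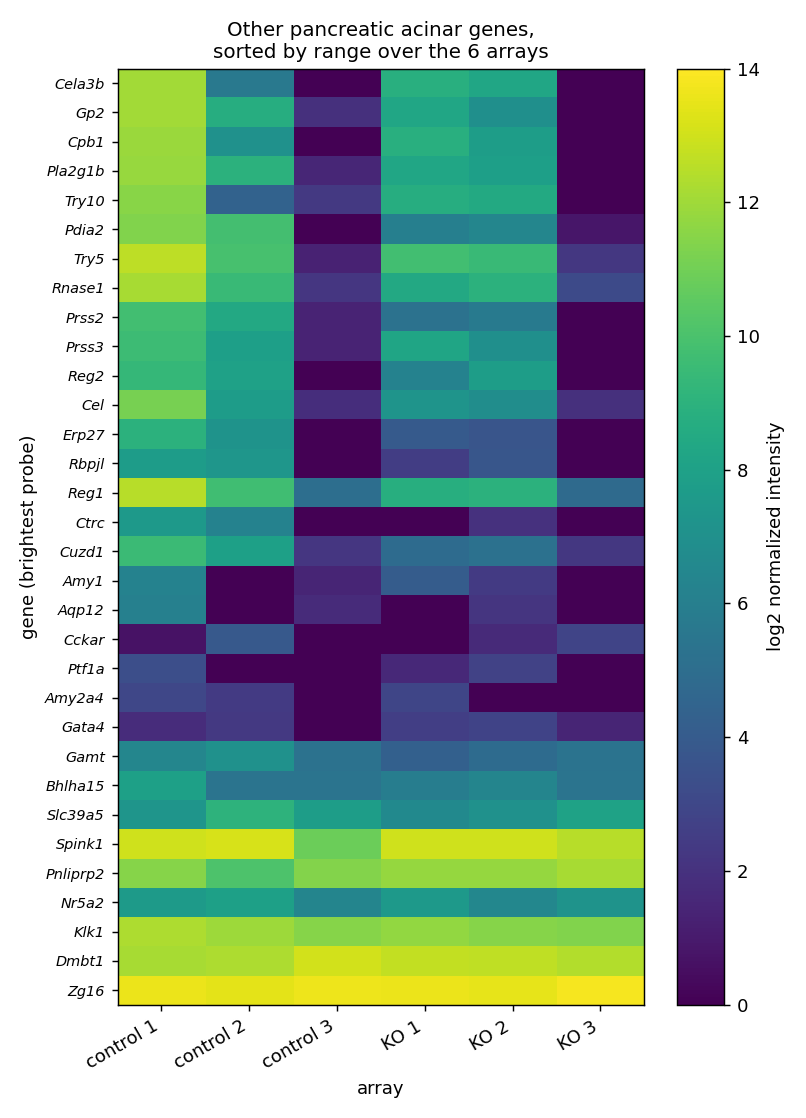
Log2 normalized intensity (colour) of the 32 other pancreatic acinar genes that passed the filter (rows, by range over the 6 arrays) on each array (columns). From Cela3b down to Erp27, control 3 and KO 3 are dark and control 1 is the lightest column, while Spink1, Pnliprp2, Klk1, Dmbt1 and Zg16 at the bottom are light on every array.

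The features most like the mean of the 10 genes over the 6 arrays were sought among 3178 others with a mean above the 70th percentile of all probes and a range of at least 2 on the log2 scale. The 10 named features with the highest Pearson r were Try5, Gm5771, Pla2g1b, Prss3, Gm10334, Cpb1, Rnase1, Gp2, Cel and Gm5409, with r from 0.979 to 0.995, and 7 of them were in the acinar list. In all, 38 of the 3178 (1.2%) had an r of at least 0.9. The measure rests on 6 arrays of which a pair is far below the rest, so it mainly ranks features by their low level on control 3 and KO 3. Cel, the bile salt-activated lipase, for instance, had log2 intensities of 11.15, 7.76 and 1.83 in control and 7.24, 6.84 and 1.93 in KO.

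Markers of other tissues that could lie beside the colon at dissection were summed on each array over their brightest probes. Of 15 islet genes 14 had a probe, and their sum ran from 879 to 2215 in control and from 771 to 1158 in KO. The leading 2, Sst and Gcg, are also made by enteroendocrine cells of the gut. Ins2, insulin, singled out after its values were seen, measured 1473 on control 1 and 8.12, 1, 1.00, 3.29 and 1 on control 2, control 3 and KO 1 to 3. No other islet gene set control 1 as far apart. Ttr, on the islet and hepatocyte lists, was also highest on control 1 and lowest on control 3 and KO 3. It measured 198, 151 and 14.1 in control and 157, 58.6 and 38.9 in KO. Without Ins2 the islet sum was 742 on control 1, the lowest of the 6 arrays, and 770 to 1395 on the others. Sst was also lowest on control 1 (133, against 246 to 876), and Iapp, co-secreted with insulin, was near the floor on all 6 arrays. Of 10 duct genes, 7 had a probe, and their sum (5667 to 11644 in control, 9740 to 10352 in KO) did not follow the enzymes. It was led by Krt19 and Sox9, which colonic epithelium also expresses.

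Stomach gland genes (10 of 13 with a probe) summed to 3285, 1006 and 54.3 in control and 123, 120 and 37.6 in KO, in step with the enzymes. Nearly all of it was Tff2, a trefoil peptide, at 3259, 976 and 1 in control and 96.1, 98.9 and 10.5 in KO, while the chief cell genes Pgc and Lipf were at the floor on all 6 arrays. Muc5ac, the second by mean, stayed between 0 and 4.98 on the log2 scale. Lymphoid follicle genes (9 of 12 with a probe) also summed highest on control 1 (756, then 317 and 184 in control, and 150 to 181 in KO). The genes of highest mean log2 intensity were Cd3d and Cd3e. Cd3d lay between 6.74 and 7.36 in control and between 5.61 and 5.94 in KO. Cd3e lay between 5.77 and 6.51 in control and between 5.16 and 6.00 in KO. Cd79b, a B cell receptor subunit singled out after its values were seen, gave 402 of the 756 on control 1, and without it control 1 was still the highest array, at 355 against 104 to 249 on the other 5. Without Tff2, the stomach gland sum was 21.6 to 53.3 on the 6 arrays and highest on control 3.

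Other marker lists had their peaks on other arrays. Hepatocyte genes (12 of 12 with a probe) summed to 5491 on KO 1 and to 294 to 584 on the other 5 arrays. Apoa1, which the small intestine also makes, gave 5126 of the sum on KO 1. Without Apoa1 the sum was 365 on KO 1 and 187 to 293 elsewhere. Ttr, a thyroid hormone carrier, was the second by mean. Alb, albumin, did not exceed 16.1 on any array. Small intestinal enterocyte genes (16 of 16) summed to 4549 on KO 1 and to 339 to 831 elsewhere. Apoa4, an apolipoprotein of enterocytes, gave 2819 of the sum on KO 1, and without it KO 1 was still highest, at 1730 against 315 to 607. Slc5a1, the gene of highest mean, lay between 7.61 and 8.54 on the log2 scale. Paneth cell genes (8 of 12) summed to 15976 to 19275 in control and 15944 to 23604 in KO, and the genes of highest mean were Ang4 and Nupr1. The defensin Defa3 alone placed KO 3 highest (5959 there, and 34.3 to 359 elsewhere), and without it control 1 was the highest array, at 19221 against 15626 to 18236. White fat genes (11 of 12), led by Pparg and Adipoq, summed to 413, 1026 and 2034 in control and 758, 1290 and 918 in KO, lowest on control 1.

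The 13 colonocyte genes with a probe of 14 summed to 44844, 39056 and 60124 in control and 57789 to 62845 in KO, lowest on control 1 and control 2. The list includes the mucus genes Muc2 and Zg16, at 11910 and 12499 on control 1 and 14919 and 11073 on control 2. Car1, a carbonic anhydrase of colonocytes singled out after its values were seen, had log2 intensities of 8.85, 8.11 and 13.68 in control and 13.43, 13.73 and 13.38 in KO, so it was low on the same control arrays. Without Car1 the sum was 44381, 38781 and 47041 in control and 47116 to 51080 in KO. Car4, another carbonic anhydrase, and Ceacam1, a cell adhesion protein, were lowest on control 2 (7.01 and 8.14). Slc37a2, a sugar phosphate transporter, measured 755, 72.4 and 1 in control and 432, 48.6 and 3.18 in KO. It was thus highest on control 1 and lowest on control 3 and KO 3, as most of the enzyme genes were. The dim Slc20a1 and the Paneth cell gene Lyz1 shared that highest array and low pair, and Slc26a3 the low pair alone. No other gene of the colonocyte and Paneth cell lists had the low pair. The genes with the low pair were singled out after their values were seen. Smooth muscle genes (10 of 10), led by Acta2 and Actg2, summed to 22700 to 38123 in control and 29010 to 43567 in KO, and were lowest on control 1. Brush border peptidase genes (9 of 11), led by Mep1b and Dpp4, summed to 667 to 1384 in control and 1237 to 1783 in KO. Limma called 0 genes in any of these lists after adjustment, and 3 genes had an unadjusted p under 0.05: Pdx1 and Nkx6-1 of the islet list, both near the floor on most arrays, and Cd3d. The part of these tissues in the array pattern of the enzyme genes was not tested.

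**Figure D5:**
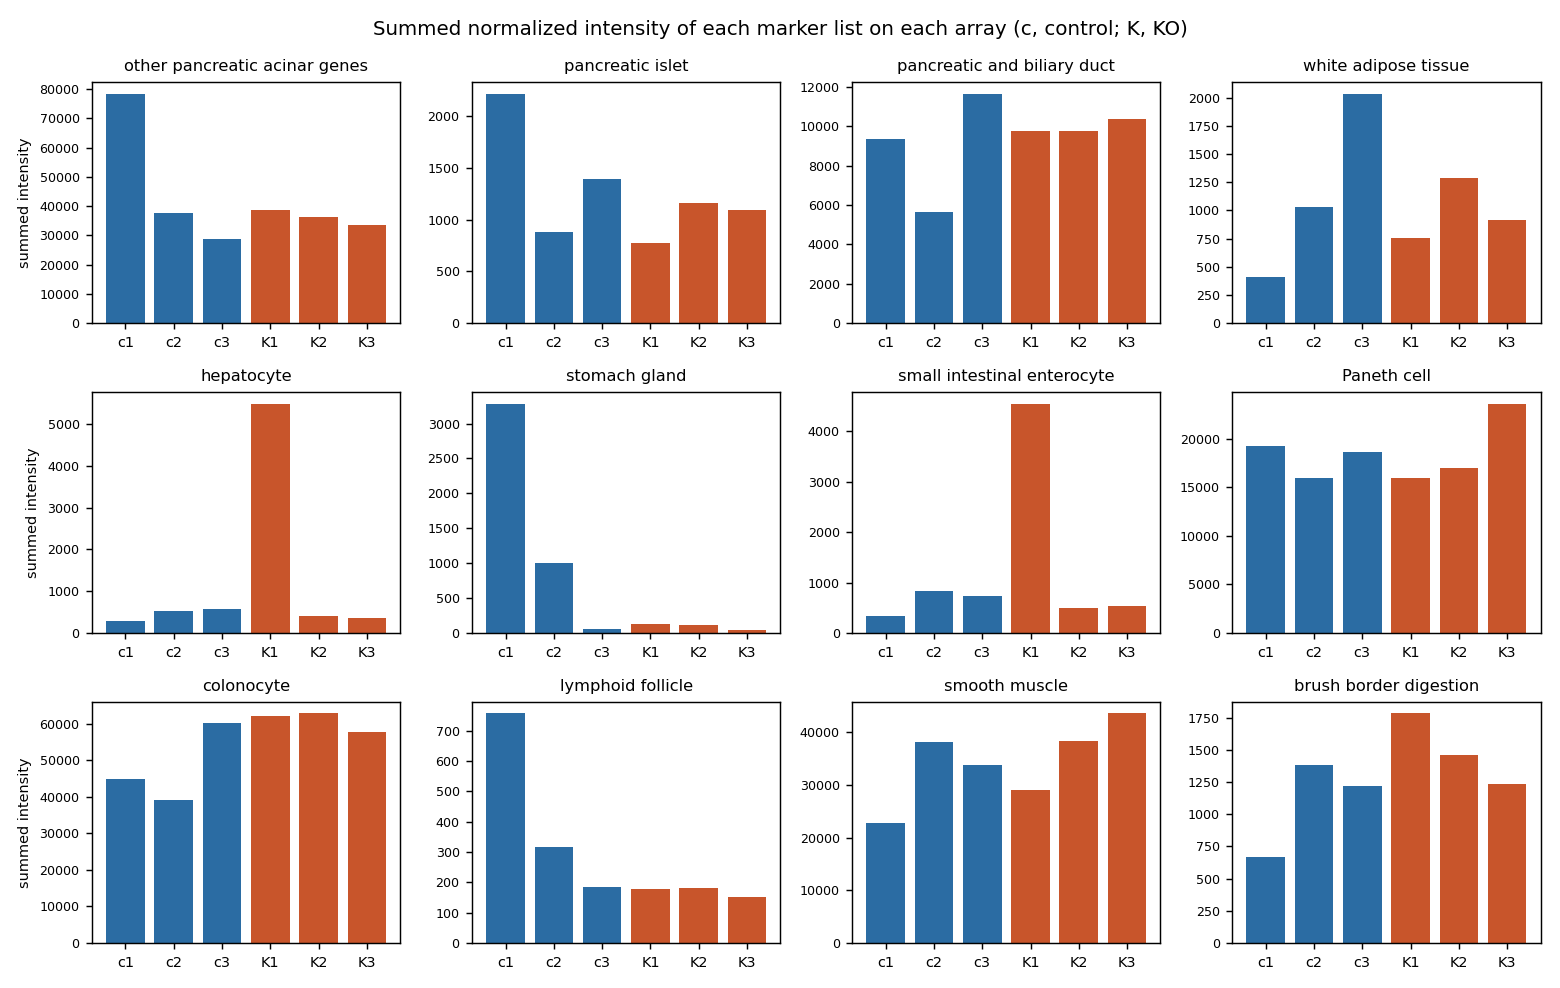
Summed normalized intensity (vertical axes, starting at 0 and scaled to each list) of 12 marker lists on control 1 to 3 (c1 to c3, blue) and KO 1 to 3 (K1 to K3, orange), 1 bar an array. Other acinar and lymphoid follicle genes peak on c1, as do islet and stomach gland genes through Ins2 and Tff2 alone, and hepatocyte, small intestinal and brush border genes peak on K1.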

How the data were processed

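Total RNA from colon was cleaned up with DNase I treatment and made into biotinylated cRNA for Illumina arrays, per the labels' protocols. The analysis starts from linear probe intensities deposited by the authors, which already share 1 median (3.82) and 1 maximum (16715) over the 6 arrays and have a floor of 1. For software, background correction and genome build, nothing is stated (not given in the sources used here). A shift that affects most genes cannot be read from values normalized in this way. A further table of 12 unnormalized columns was not used, because their names match no sample's labels.

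Intensities were log2 transformed without an offset. The platform annotation gave 1 gene symbol to 34885 probes, several to 18 and none to 10378. A filter kept probes whose mean log2 intensity exceeded the 40th percentile (0.96), 1 a gene (the highest mean), with unnamed probes as features of their own, 18918 in all. The 3 KO and 3 control arrays were fitted with limma 3.58.1 under R 4.3.3 (lmFit and eBayes, 2-sided, Benjamini-Hochberg over all features, threshold 0.05), a fit tested on simulated data. The number of arrays limits the precision, and no depth applies. Figures were drawn with matplotlib 3.10.9.

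The members, the 12 gene lists and the tests were chosen with earlier results of these data known. Genes named were every member probe, of the other acinar genes the 8 with the largest range and the 4 with the smallest p, the 10 features most like the members, Setd2, and up to 2 genes of highest mean in each list, with exceptions stated. Alternatives were an offset of 16, other filters, further centring, trend and robust options, a replicate block, the mean of a gene's probes and leaving out arrays.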

Additional observations from a re-analysis of the deposited data

How the results depend on the processing

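With no filter on low probes, 11 of 29453 features passed the adjusted threshold in limma in place of 0 of 18918. Of the 11, 10 were at the floor on every array of a group, and 0 were among the other acinar genes. Under the other alternatives fitted over all features, 0 passed. With the replicate number as a block (replicate block), 0 features and 0 other acinar genes passed, and the differences were unchanged by construction. The labels do not say that a number marks a shared animal or batch, and deviations of same-numbered arrays from their group means correlated at 0.16, -0.09 and 0.04 for numbers 1, 2 and 3, so the numbers were not taken as pairs. Control 2 correlated best with KO 3 (0.13) and control 3 with KO 2 (0.07). Leaving out both arrays of a number, an alternative chosen after seeing the data, gave median differences of the 10 genes of -0.71, -1.19 and -1.82 without number 1, 2 and 3, and -0.23, -1.46 and -1.39 for the other acinar genes. Leaving out single arrays gave -3.85 to 1.24 for the 10 genes and -2.76 to 0.13 for the other acinar genes. An offset of 16 gave medians of -1.28 and -0.76, and the counts of genes with a range of at least 3 stayed at 9 in control and 8 in KO with it, with further centring and with the mean of all probes. Normalizing the unnormalized table was not run, because its columns could not be matched to samples.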

Other observations

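Among the 19 other acinar genes that were lowest on control 3 and KO 3, the split between control 2 and KO 1 separated groups of genes. Control 2 exceeded KO 1 by at least 3 on the log2 scale for 6 of the 19, namely Cuzd1 (3.04), Prss2 (3.20), Erp27 (3.28), Pdia2 (3.79), Rbpjl (4.83) and Ctrc (6.18). KO 1 was near the floor for Erp27, Rbpjl and Ctrc, so their differences are imprecise, and control 2 is the array on which 35.4% of probe pairs shifted. Erp27 and Pdia2 encode protein disulfide isomerase family members of the endoplasmic reticulum, and Rbpjl a subunit of PTF1. In the same comparison (control 2 minus KO 1) the differences of Cpb1, Cela3b and Try10 were -1.75, -3.13 and -4.32. Between KO 1 and KO 2 the 19 genes differed by -1.94 to 1.32 with a median of -0.02, and between control 1 and control 2 by -0.54 to 7.12 with a median of 1.80. Control 1 exceeded KO 1 for 18 of the 19. These genes were singled out after their values were seen, and no test was made.

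The adipokine Adipoq, also singled out after its values were seen, measured 2.59 on control 1 and 9.19 on KO 1, and 114 to 383 on the other 4 arrays.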
